A study of Mus musculus with 46 samples.

Results

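Secreted Wnt antagonists are extracellular proteins that keep Wnt ligands from signalling, and 6 of their genes are described here in infarcted mouse hearts: Sfrp1, Sfrp2, Frzb, Sfrp4, Dkk3 and Wif1. They were taken as all probe sets that the platform annotation assigns to 1 of these symbols only, which gave 11 probe sets for 6 of the 12393 genes measured in this way. Sfrp1 had 4 probe sets, Frzb and Dkk3 had 2 each, and Sfrp2, Sfrp4 and Wif1 had 1 each. The set was chosen by the measured levels of Sfrp2, which at day 5 after infarction lay far above those at day 1, so the day 5 levels of Sfrp2 are given as a description with no test against earlier days or between regions. For all 6 genes the difference between day 5 and day 1 is likewise only described.

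The hearts came from male MRL/MpJ (MRL) and C57BL/6J (C57) mice aged 15 to 20 weeks, and were collected 1 or 5 days after the left coronary artery had been ligated, or without any surgery as day 0. No operated heart without a ligated artery was among the samples, so the effects of surgery and of infarction cannot be told apart. The infarct samples held the infarct and its border zone, or at day 0 the matching anterior and apical part of the ventricle, and the noninfarct samples held the rest of the left ventricle. The 46 Affymetrix MOE430A arrays formed 12 groups of strain, day and region, with 4 arrays per group and 3 in each C57 day 0 group. The labels call the arrays of a group biological replicates but do not tie the 2 regions of a heart to each other.

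Wnt ligands are secreted lipid-modified glycoproteins that bind frizzled receptors together with Lrp5 or Lrp6, and canonical signalling then stabilises beta-catenin and switches on target genes through Tcf and Lef factors. Secreted frizzled-related proteins, encoded by Sfrp1, Sfrp2, Frzb and Sfrp4, carry a frizzled-like cysteine-rich domain and can bind Wnt ligands, while Wif1 binds them through a different domain. Dkk3 belongs to the Dickkopf family, whose founding member blocks Lrp5 and Lrp6, although the place of Dkk3 itself in Wnt signalling is less settled. In the heart these genes have been studied in scar formation, fibroblast activation and repair, and MRL mice are known for unusually complete healing of ear wounds.

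All levels are given as log2 of the deposited intensity, on which a difference of 1 is a 2-fold difference, and the level of a probe set is compared only with its own level on other arrays. The array medians lay between 4.22 and 4.48, and a probe set was tested in a region if it lay above the array median on at least 3 arrays. In infarct tissue 10 of the 11 probe sets passed, all but Wif1, and in noninfarct tissue all 11 passed. Sfrp2 passed only through the 16 day 5 arrays, and in infarct tissue Dkk3 1417312_at and Frzb 1448424_at reached the 3 arrays only through the 8 of day 5. Sfrp4 in both regions and Wif1 in noninfarct tissue passed only through arrays of day 0 and day 1. A difference between days was thus favoured by their selection, so the changes from day 0 to day 5 of Dkk3 1417312_at and Frzb 1448424_at in infarct tissue and of Wif1 are given as a description with no p from the filtered fit. Sfrp4 was not called between days, and its p-values are given with that limit. Changes are limma estimates with their standard errors (SE), and a call means an adjusted p under 0.05 after Benjamini-Hochberg adjustment over all probe sets tested in that comparison. Comparisons of day 1 and of day 5 share the same day 0 arrays.

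The heart muscle gene Myh6 lay between 13.07 and 15.62 on all 46 arrays, and 3 day 5 libraries went against their region label in their level of Myl7. Myl7, the atrial myosin light chain, lay between 2.61 and 2.99 on every infarct array of day 0 and day 1, against 5.44 to 9.16 on every noninfarct array of those days. The library labelled MRL day 5 infarct replicate 3 had 8.32, inside the noninfarct range, whereas the libraries labelled MRL day 5 noninfarct replicate 4 and C57 day 5 noninfarct replicate 3 had 2.53 and 2.73, at the infarct level. On the first principal component of the probe sets above the array median on at least 3 of the 46 arrays, 2 of these also stood apart from their groups. The MRL infarct library had 11, against 108 to 116, and the C57 noninfarct library had 99.1, against -30.2 to 35.3. They are the 2 libraries that stood apart below. C57 day 5 infarct replicate 1 also lay apart, at 40.5 against 98.8 to 117, but stayed in the fits without those 2. Its Myh6 level was 15.20, against 13.87 to 14.26 in the rest of its group. MRL day 5 noninfarct replicate 4, with the low Myl7 level, lay with its group on the first principal component, at 22.2 against 20.5 to 42.8. Its Myh6 level was 15.11, against 15.13 to 15.26 in the rest of its group. A low level of an atrial gene alone does not show that this library held infarct tissue. Day 5 results of the 6 genes whose call changed without the 2 libraries are given both ways.

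**Figure D1:**
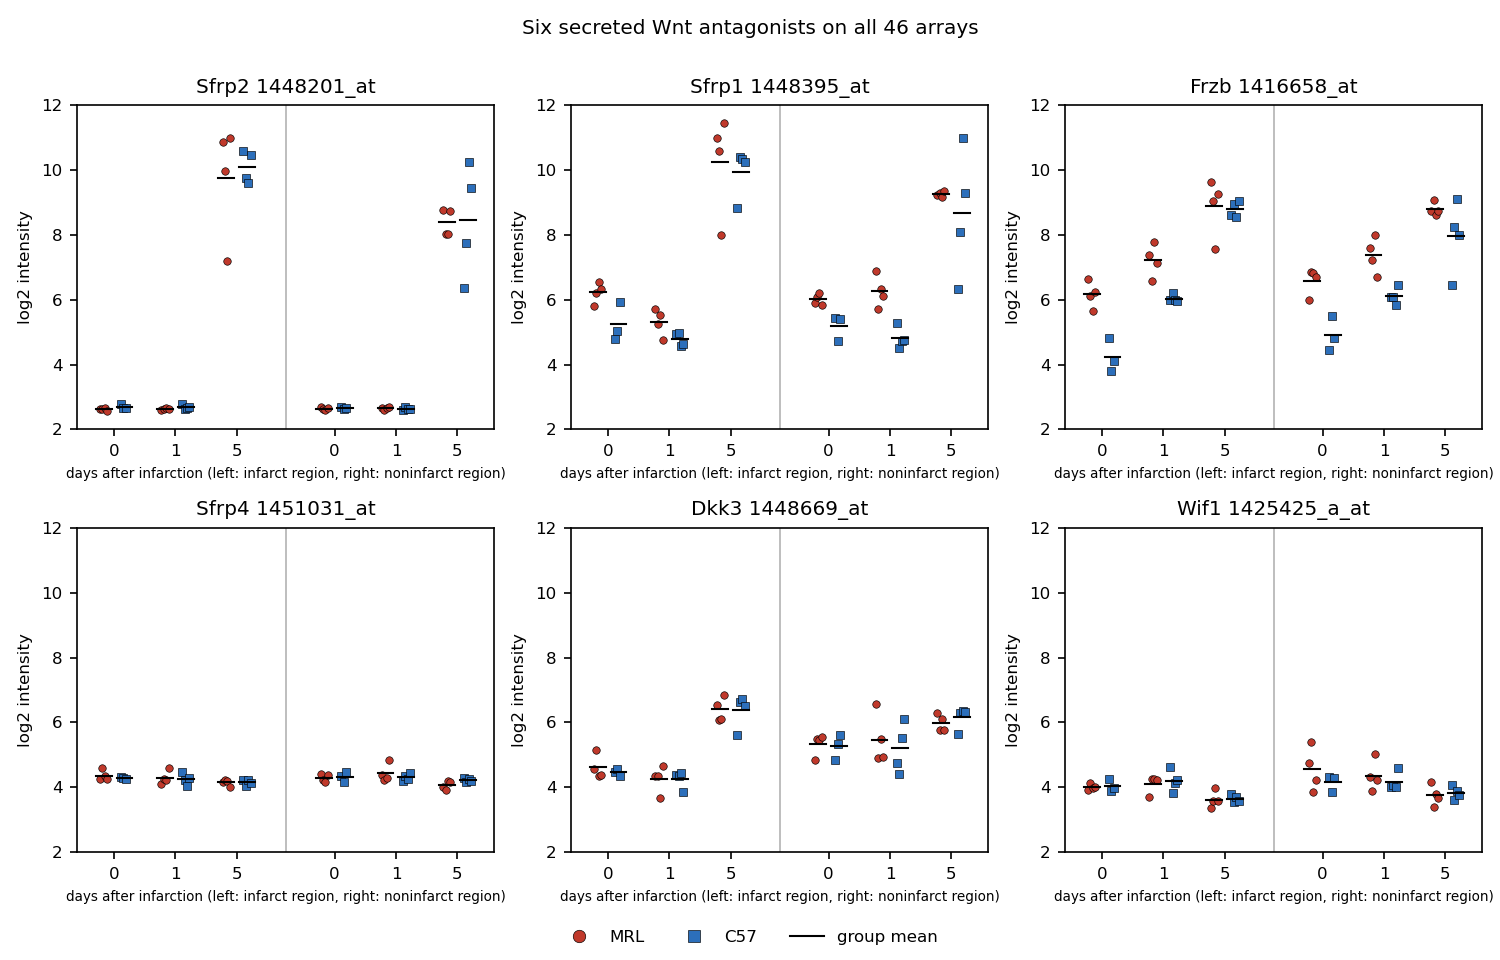
Log2 intensity of 1 probe set per gene on every array by day, with infarct tissue left of noninfarct tissue in each panel, MRL as red circles left of C57 as blue squares, and a bar at each group mean. Sfrp2 lay between 2.57 and 2.80 on all 30 arrays of day 0 and day 1 and above 6 on all 16 arrays of day 5, while Sfrp4 stayed between 3.93 and 4.85 on all 46 arrays.

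Sfrp2, which encodes a secreted frizzled-related protein made by fibroblasts in healing tissue, was far brighter on every day 5 array than on any earlier array. In infarct tissue at day 5 it reached 10.86, 9.96, 7.21 and 10.99 in MRL and 10.59, 9.77, 9.60 and 10.47 in C57. In noninfarct tissue at day 5 it reached 8.76, 8.03, 8.03 and 8.73 in MRL and 6.35, 7.75, 10.26 and 9.43 in C57. The lowest day 5 value, in a C57 noninfarct sample, still lay well above the highest of the 30 earlier values, 2.80. The lowest infarct value of day 5 was that of the MRL library with the noninfarct level of Myl7, and the highest noninfarct value was that of the C57 library with the infarct level. In bulk tissue such as this, more or fewer cells of a type and more or less RNA per cell cannot be told apart.

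By group mean, the order of Sfrp2 at day 5 was C57 infarct with 10.11 ± 0.49, MRL infarct with 9.75 ± 1.76, C57 noninfarct with 8.45 ± 1.75 and MRL noninfarct with 8.39 ± 0.41 (SD, n = 4 each). These neighbours lay closer together than their SD, and the 8 groups of day 0 and day 1 followed at 2.70 or less. In infarct tissue the day 5 mean exceeded the day 0 mean by 7.13 in MRL and by 7.40 in C57 on the log2 scale. The same differences in noninfarct tissue were 5.75 in MRL and 5.78 in C57. Because all day 0 levels lay below the array medians, these sizes depend on the scale at the dim end. With an offset of 32 intensity units added before the log, they were 4.59 and 4.88 in infarct tissue and 3.27 and 3.38 in noninfarct tissue, MRL first. Between regions at day 5 the infarct mean exceeded the noninfarct mean by 1.36 in MRL and by 1.66 in C57, and by 2.21 and 2.26 without the 2 libraries that stood apart.

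The strains could be tested on Sfrp2, since its choice did not use them. At day 5 the MRL minus C57 difference was -0.36 ± 0.50 in infarct tissue (SE, adjusted p = 1, 95% interval -1.40 to 0.69) and -0.06 ± 0.49 in noninfarct tissue (adjusted p = 0.98, 95% interval -1.08 to 0.97). Without the 2 libraries that stood apart the signs turned, to 0.49 in infarct and 0.55 in noninfarct tissue, and neither difference passed the test (adjusted p = 0.43 and 0.58).

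The promoters of Sfrp2 and Frzb are shown because both genes lay higher at day 5 than at day 0 in both strains and both regions. The letters are the 250 bases before the annotated start in RefSeq on build GRCm38.p6, written along the gene's strand, at chr3:83766071-83766320 on the plus strand for Sfrp2 and chr2:80447397-80447646 on the minus strand for Frzb. Capitals mark matches to 6 motifs searched on both strands, which were the TATA box TATAAA, the CAAT box CCAAT, the GC box GGGCGG, the AP-1 motif TGANTCA, the TCF/LEF motif CTTTGAT and the SMAD motif CAGACA.
Sfrp2: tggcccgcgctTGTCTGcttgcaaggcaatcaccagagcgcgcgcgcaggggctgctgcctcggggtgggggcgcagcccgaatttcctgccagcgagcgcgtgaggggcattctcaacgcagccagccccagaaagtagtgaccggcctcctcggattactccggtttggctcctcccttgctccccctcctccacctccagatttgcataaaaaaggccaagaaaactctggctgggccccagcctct
Frzb: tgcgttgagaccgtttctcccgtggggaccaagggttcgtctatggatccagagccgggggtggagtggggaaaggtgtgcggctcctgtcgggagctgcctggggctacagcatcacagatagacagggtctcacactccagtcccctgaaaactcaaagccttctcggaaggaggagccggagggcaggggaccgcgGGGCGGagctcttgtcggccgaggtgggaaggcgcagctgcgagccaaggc
The Sfrp2 window held the SMAD letters once, on the opposite strand and starting at position -239 from the gene's start, a motif that 17.1% of 32851 mouse promoter windows hold. The Frzb window held 1 GC box at position -51, found in 32.7% of all windows. Neither window held the AP-1 letters, found in 6.75% of windows, or the TCF/LEF letters, found in 3.21%. The TATA box letters and the CAAT box letters, held by 12.4% and 33.8% of windows, were also in neither. GC content was 63.6% in the Sfrp2 window and 64.4% in the Frzb window, against 53.2% over all windows. The reference table held a promoter for 3 of the 6 genes, these and Wif1.

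Sfrp1, another secreted frizzled-related protein, rose at day 5 by 3 of its 4 probe sets in both strains and both regions. On probe set 1448395_at the infarct samples of day 5 had 10.99, 10.59, 7.99 and 11.47 in MRL, against 5.81, 6.21, 6.55 and 6.34 in MRL infarct tissue at day 0. The C57 infarct samples had 8.83, 10.40, 10.35 and 10.24 at day 5, against 4.80, 5.04 and 5.93 at day 0. All day 5 values lay above all day 0 values in each strain, by 4.03 ± 0.51 in MRL (adjusted p = 5.6e-06) and 4.70 ± 0.56 in C57 (adjusted p = 3e-06). Probe set 1416594_at rose by 4.21 ± 0.42 in MRL and 3.91 ± 0.45 in C57, and probe set 1460187_at by 3.70 ± 0.31 and 4.00 ± 0.34, with adjusted p-values of 2.2e-06 or less.

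In noninfarct tissue the Sfrp1 levels of day 5 on 1448395_at were 9.24, 9.29, 9.18 and 9.34 in MRL, against 5.91, 6.07, 6.20 and 5.85 at day 0. In C57 they were 6.33, 8.10, 11.00 and 9.29 at day 5, against 5.42, 4.73 and 5.40 at day 0. The MRL values at day 5 were tightly grouped and the C57 values were spread, with the highest in the library that had the infarct level of Myl7. The change was 3.26 ± 0.57 in MRL (adjusted p = 0.00042) and 3.49 ± 0.62 in C57 (adjusted p = 0.0012). Both other probe sets rose as well, by 2.63 and 3.44 in MRL and 2.71 and 3.14 in C57, with adjusted p-values between 4.5e-06 and 0.0039. Without the 2 libraries that stood apart, the changes on 1448395_at were 4.79 in MRL infarct and 2.72 in C57 noninfarct tissue, and the 3 probe sets kept their calls in both strains and regions.

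The remaining Sfrp1 probe set, 1438620_x_at, moved otherwise. Its level was 7.83, 7.63, 7.33 and 7.47 in MRL infarct tissue at day 5, against 7.60, 8.22, 7.67 and 7.59 at day 0. In C57 infarct tissue it was 8.17, 8.06, 7.05 and 7.45 at day 5, against 9.08, 8.18 and 8.16 at day 0. The groups overlapped in both strains, and the changes of -0.20 ± 0.30 and -0.79 ± 0.33 missed the threshold (adjusted p = 0.6 and 0.055). The changes in noninfarct tissue were -0.61 ± 0.22 in MRL (adjusted p = 0.052) and -0.59 ± 0.24 in C57 (adjusted p = 0.085). Several of these lay near the threshold and passed under other settings. In C57 infarct tissue the adjusted p was 0.035 with arrays centred on their median, 0.023 with other samples in the fit, and 0.027 and 0.048 without day 5 replicate 1 or 2. In MRL noninfarct tissue it was 0.035 with centring, 0.03 with quantile normalization, 0.04 without the 2 libraries that stood apart and 0.047 without day 5 replicate 4. In C57 noninfarct tissue it was 0.047 without day 5 replicate 1. Across the 46 arrays, which share the structure of days, strains and regions, this probe set correlated with the other 3 at r = -0.467 to -0.33, whereas those correlated with one another at r = 0.931 to 0.965. Since it was the brightest on average, it represents Sfrp1 in counts by gene, so those counts leave out the rise that the other 3 probe sets show.

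**Figure D2:**
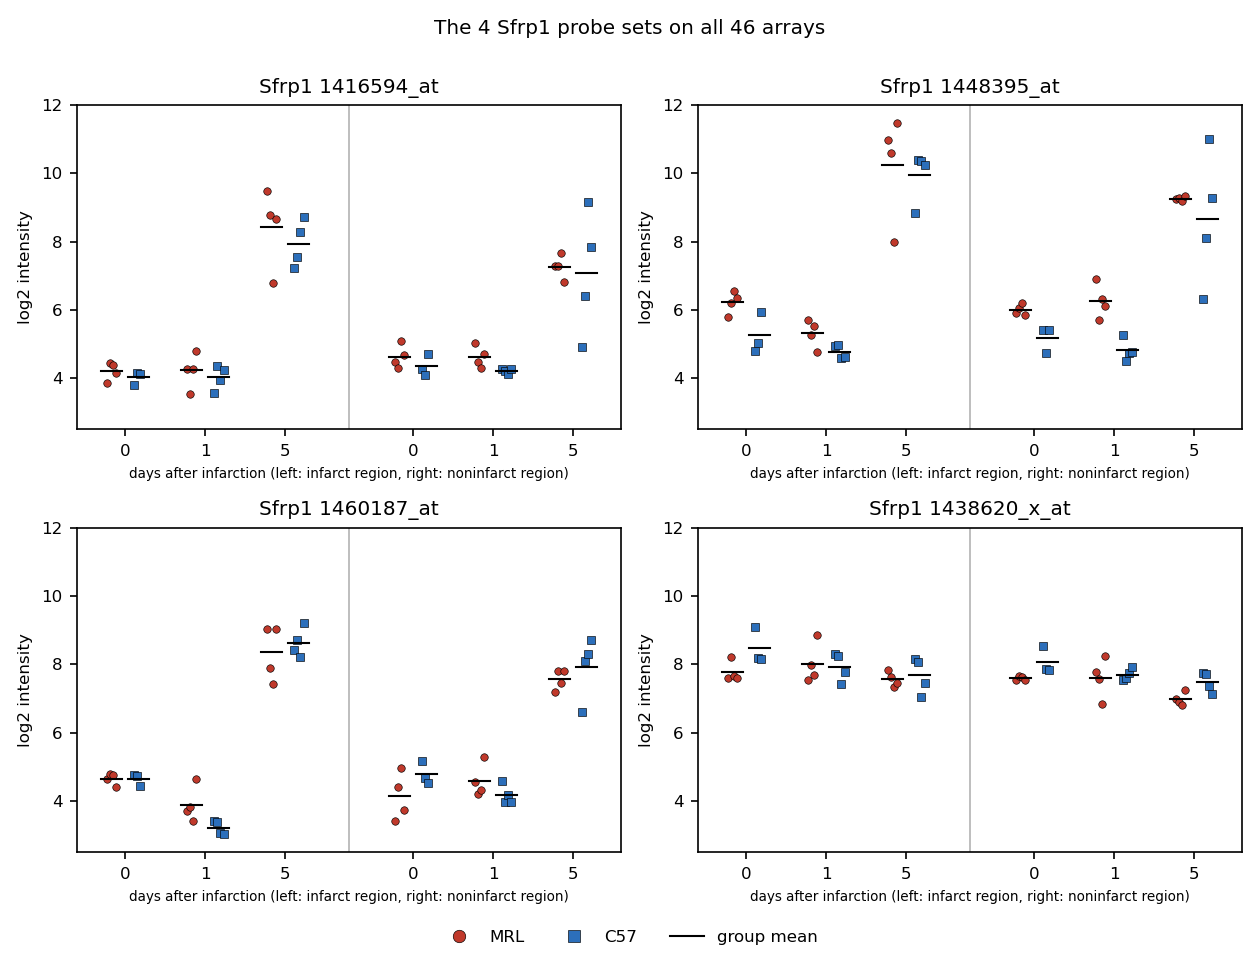
Log2 intensity of the 4 Sfrp1 probe sets on every array, by day and region, with MRL left of C57 and bars at group means. In 3 of the panels the levels are highest at day 5, while 1438620_x_at lies between 6.82 and 9.08 on all days.

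At day 1 in infarct tissue no Sfrp1 probe set was called higher than at day 0, and 1 was called lower in C57. Probe set 1460187_at had 3.42, 3.37, 3.05 and 3.03 in C57 infarct tissue at day 1, against 4.75, 4.74 and 4.43 at day 0. The C57 groups did not overlap, and the level fell by 1.42 on the log2 scale with an SE of 0.34 (adjusted p = 0.0073), although with the offset of 32 the change was -0.46 and missed the threshold (adjusted p = 0.26). In MRL the same probe set had 3.71, 3.82, 3.42 and 4.64 at day 1, against 4.66, 4.78, 4.75 and 4.42 at day 0, a change of -0.75 ± 0.31 that missed the threshold with all arrays (adjusted p = 0.09), and passed it with the libraries that stood apart left out (adjusted p = 0.045) and without MRL day 1 infarct replicate 4 (adjusted p = 0.04). Probe set 1448395_at differed by -0.91 ± 0.51 in MRL (adjusted p = 0.21, and 0.039 without those libraries). Since those libraries are of day 5, the arrays compared here stayed the same, and only the shared spread and the adjustment changed. In MRL the other 2 differed by 0.01 on 1416594_at (adjusted p = 0.99) and 0.25 on 1438620_x_at (adjusted p = 0.58).

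By group mean on 1448395_at, Sfrp1 was highest in MRL infarct tissue at day 5 with 10.26 ± 1.55, then in C57 infarct with 9.95 ± 0.75, MRL noninfarct with 9.27 ± 0.07 and C57 noninfarct with 8.68 ± 1.97 at day 5 (SD, n = 4 each). Neighbours among these 4 groups did not differ beyond their SD. The next step down was 2.41, to MRL noninfarct tissue at day 1 with 6.27, and exceeded the SD on both sides. The MRL day 0 groups followed at 6.23 and 6.01, and the lowest 5 groups, from 5.31 in MRL infarct tissue at day 1 to 4.78 in C57 infarct tissue at day 1, were again separated from them by more than their SD.

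Frzb, which encodes secreted frizzled-related protein 3, was already higher at day 1 in infarct tissue on its brighter probe set, 1416658_at, and was higher again at day 5. On that probe set it also differed between the strains before infarction. On probe set 1416658_at MRL infarct tissue had 7.39, 6.59, 7.78 and 7.13 at day 1, against 6.64, 6.10, 5.65 and 6.25 at day 0. C57 infarct tissue had 5.99, 6.21, 5.99 and 5.96 at day 1, against 4.81, 3.82 and 4.11 at day 0. The C57 groups did not overlap and the MRL groups did, by 1 array. The change was 1.06 ± 0.34 in MRL (adjusted p = 0.033) and 1.79 ± 0.37 in C57 (adjusted p = 0.0024). The MRL call was lost without day 0 replicate 2, 3 or 4 (adjusted p = 0.067, 0.1 and 0.059), without day 1 replicate 1, 3 or 4 (adjusted p = 0.059, 0.089 and 0.059) and without a filter (adjusted p = 0.061).

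At day 5 Frzb reached 9.62, 9.05, 7.57 and 9.27 in MRL infarct tissue and 8.63, 8.95, 8.54 and 9.04 in C57 infarct tissue. These values lay above all day 0 values of their strain, by 2.72 ± 0.34 in MRL (adjusted p = 4.9e-06) and by 4.54 ± 0.37 in C57 (adjusted p = 2.8e-08). In noninfarct tissue the day 5 values were 8.73, 9.07, 8.60 and 8.75 in MRL, against 6.01, 6.84, 6.81 and 6.70 at day 0, and 6.45, 8.25, 9.11 and 8.01 in C57, against 4.46, 5.48 and 4.83 at day 0. The groups did not overlap in either strain, with changes of 2.20 ± 0.39 in MRL (adjusted p = 0.00045) and 3.03 ± 0.42 in C57 (adjusted p = 0.00016). Without the 2 libraries that stood apart, the change was 3.15 in MRL infarct tissue and 2.64 in C57 noninfarct tissue, and both calls held.

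The dimmer Frzb probe set, 1448424_at, lay above the array median on 20 of 46 arrays, against 44 for 1416658_at. In infarct tissue at day 5 it lay above day 0 by 2.81 in MRL and 2.82 in C57, with no overlap, a difference that its selection through the day 5 arrays favoured. In noninfarct tissue it rose by 2.42 ± 0.50 in MRL (adjusted p = 0.0018). In C57 the rise of 1.96 ± 0.55 passed (adjusted p = 0.018) although the groups overlapped, and it was lost without the 3 libraries that went against their region (1.26, adjusted p = 0.056), without C57 day 0 replicate 2 (adjusted p = 0.065) and without C57 day 0 replicate 3 (adjusted p = 0.059). At day 1 in infarct tissue it differed from day 0 by 0.66 in MRL and 0.86 in C57 without passing the test (adjusted p = 0.4 and 0.34).

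Between strains, Frzb 1416658_at was higher in MRL at day 0 in both regions, with no overlap. In infarct tissue the 4 MRL values from 5.65 to 6.64 stood against the 3 C57 values from 3.82 to 4.81, a difference of 1.92 ± 0.37 (adjusted p = 0.0078). In noninfarct tissue the MRL values from 6.01 to 6.84 stood against C57 values from 4.46 to 5.48, a difference of 1.66 ± 0.42 (adjusted p = 0.042). These were the only 2 calls among 63 strain differences of the 6 genes, of which 9 had an unadjusted p under 0.05. The dimmer 1448424_at was thus not called at day 0, where all its values lay below the array medians. In infarct tissue it had 3.53 to 4.03 in MRL and 2.65 to 3.65 in C57, which overlapped. In noninfarct tissue it had 4.09 to 4.23 in MRL and 3.42 to 3.84 in C57, with no overlap. The share of all tested probe sets called between the strains at day 0 was 1.07% in infarct tissue and 1.8% in noninfarct tissue, with 0.67% and 0.956% called higher in MRL. With the offset of 32 the differences were 1.02 and 1.03 and neither passed (adjusted p = 0.18 and 0.19), and the infarct difference was 1.70 with an adjusted p of 0.074 without C57 day 0 infarct replicate 2. The noninfarct difference was 1.43 to 1.63 and not called without C57 day 0 replicate 1 or 3 (adjusted p = 0.25 and 0.15) or without MRL day 0 replicate 2, 3 or 4 (adjusted p = 0.12, 0.11 and 0.1), and without a filter its adjusted p was 0.086.

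At day 1 the Frzb strain groups again did not overlap, with MRL higher by 1.19 ± 0.34 in infarct tissue (adjusted p = 0.13) and 1.25 ± 0.39 in noninfarct tissue (adjusted p = 0.094). Both differences passed without the 2 libraries that stood apart, at unaltered size (adjusted p = 0.014 and 0.03). As those libraries are of day 5, no day 1 array was left out, and only the shared estimate of spread and the adjustment changed. Sfrp1 1448395_at was 1.45 ± 0.57 higher in MRL noninfarct tissue at day 1, also with no overlap (adjusted p = 0.22, and 0.036 without those libraries). At day 5 the difference was 0.09 ± 0.34 in infarct tissue (adjusted p = 1) and 0.83 ± 0.39 in noninfarct tissue (adjusted p = 0.49) on 1416658_at. On 1448424_at MRL noninfarct tissue lay 1.03 ± 0.50 above C57 at day 5 (adjusted p = 0.52). The difference was 1.73 with the 2 libraries that stood apart left out (adjusted p = 0.0074). It was 1.74 without the 3 that went against their region (adjusted p = 0.019). Those libraries were set apart by expression values of these same arrays, and 1 of them is a C57 noninfarct library of day 5. The 2 calls without them are thus no independent test of the strains. The share of probe sets called was 0.997% at day 1 and 0.686% at day 5 in infarct tissue, and 2.77% and 1.25% in noninfarct tissue. The gap in the change from day 0 to day 5 was tested directly. For Frzb in infarct tissue the MRL change minus the C57 change was -1.83 ± 0.50 with a 95% interval of -2.88 to -0.78 that did not pass over all probe sets (adjusted p = 0.39). None of the 42 such strain by infarction values of the 6 genes was called by limma, and 1 had an unadjusted p under 0.05. Of all probe sets, 0.0468% at day 1 and 0.156% at day 5 were called in infarct tissue and 0.0081% at each day in noninfarct tissue.

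**Figure D3:**
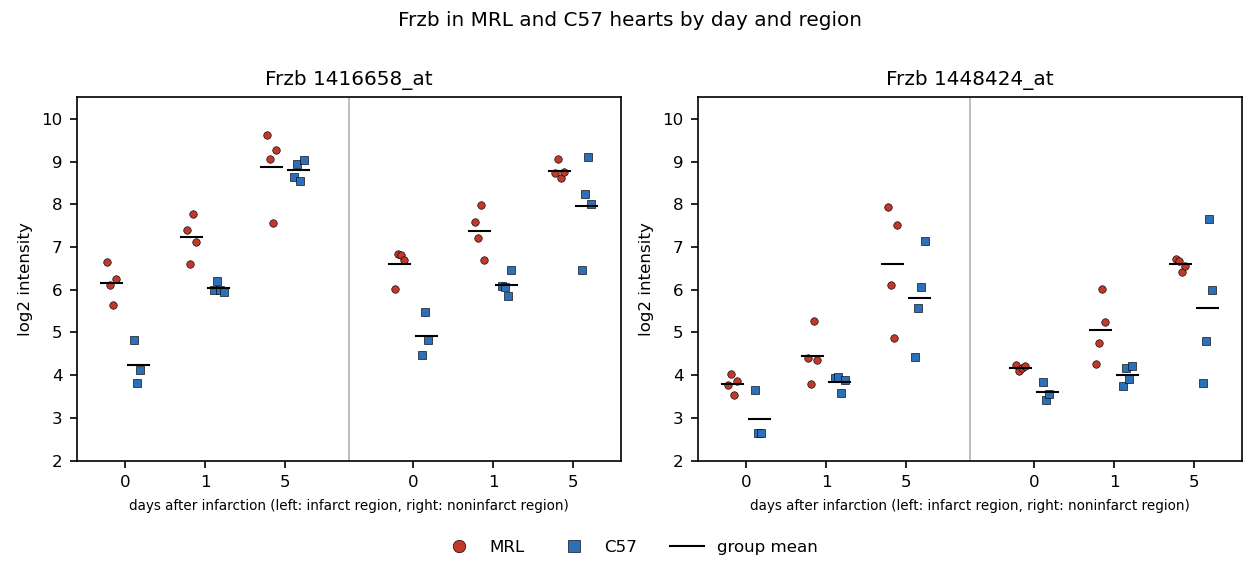
Log2 intensity of both Frzb probe sets on every array by day and region, MRL left of C57, with bars at group means. On 1416658_at the MRL and C57 samples do not overlap at day 0 or day 1 in either region and overlap at day 5 in both.

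By group mean on 1416658_at, Frzb was highest in the day 5 groups, at 8.88 ± 0.90 in MRL infarct, 8.79 ± 0.24 in C57 infarct, 8.79 ± 0.20 in MRL noninfarct and 7.95 ± 1.11 in C57 noninfarct tissue (SD, n = 4 each). The MRL day 1 groups came next with 7.37 in noninfarct and 7.22 in infarct tissue, without a gap beyond the SD. The MRL day 0 groups, at 6.59 in noninfarct and 6.16 in infarct tissue, came before the C57 day 1 groups at 6.11 and 6.03. The C57 day 0 groups were lowest, with 4.93 ± 0.52 in noninfarct and 4.25 ± 0.51 in infarct tissue (SD, n = 3 each), and the step above them, 1.11, exceeded the SD.

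Sfrp4, the last secreted frizzled-related protein of the set, was called in no comparison. Its level lay between 3.93 and 4.85 on all 46 arrays and above the array median on 15, and the group means ran from 4.08 in MRL noninfarct tissue at day 5 to 4.44 in MRL noninfarct tissue at day 1, with no gap between neighbours beyond their SD. At day 5 against day 0 it differed by -0.21 ± 0.14 in MRL infarct tissue (adjusted p = 0.22) and -0.13 ± 0.15 in C57 infarct tissue (adjusted p = 0.51), and these groups did not overlap although no call was made. Its selection through day 0 and day 1 arrays favoured a lower level at day 5. A probe set so close to the array median allows no statement that the transcript was absent.

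Dkk3, the Dickkopf-related member, rose at day 5 in infarct tissue and was lower in infarct than in noninfarct tissue at day 1. On probe set 1448669_at the infarct samples of day 5 had 6.55, 6.09, 6.12 and 6.84 in MRL, against 4.58, 5.14, 4.35 and 4.39 at day 0. In C57 they had 5.62, 6.63, 6.72 and 6.52 at day 5, against 4.46, 4.57 and 4.36 at day 0. The groups did not overlap, and the change was 1.79 ± 0.26 in MRL (adjusted p = 2.2e-05) and 1.91 ± 0.28 in C57 (adjusted p = 3.3e-05). Probe set 1417312_at lay above day 0 by 2.99 in MRL and 3.00 in C57, with no overlap, a difference that its selection through the day 5 arrays favoured.

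In noninfarct tissue the Dkk3 changes at day 5 were smaller. On 1417312_at MRL had 5.27, 5.27, 5.80 and 4.89 at day 5, against 2.99, 3.58, 4.24 and 4.09 at day 0, a rise of 1.58 ± 0.34 with no overlap (adjusted p = 0.0025). C57 had 4.05, 5.04, 5.35 and 5.84, against 4.11, 4.29 and 3.67, which overlapped, and the change of 1.05 ± 0.37 lay at the threshold (adjusted p = 0.049). It missed the threshold under several other settings, such as 0.095 without a filter and 0.13 without the 2 libraries that stood apart. Leaving out any 1 C57 day 0 array or C57 day 5 replicate 2, 3 or 4 also ended the call, with adjusted p-values from 0.07 to 0.17. On 1448669_at the differences of 0.65 ± 0.35 in MRL and 0.89 ± 0.38 in C57 did not pass (adjusted p = 0.17 and 0.092), although neither strain's groups overlapped.

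Between regions at day 1, Dkk3 was lower in infarct tissue. On 1417312_at MRL had 2.82, 2.74, 2.97 and 2.96 in infarct tissue, against 4.33, 3.99, 4.11 and 2.99 in noninfarct tissue. C57 had 3.00, 2.88, 2.84 and 2.92 in infarct tissue, against 3.98, 3.50, 3.96 and 4.06 in noninfarct tissue. The differences were -0.99 ± 0.29 in MRL (adjusted p = 0.031) and -0.97 ± 0.29 in C57 (adjusted p = 0.037), with no overlap and with every infarct value below the array medians. On 1448669_at the difference was -1.21 ± 0.31 in MRL (adjusted p = 0.016, and 0.11 without MRL day 1 noninfarct replicate 1) and -0.94 ± 0.31 in C57 (adjusted p = 0.057). Of the 11 probe sets, 2 were called lower in MRL and 1 in C57, where 9.28% and 7.31% of all probe sets were called in either direction and 4.84% and 3.38% as lower. The calls on 1417312_at did not hold without a filter (adjusted p = 0.051 in MRL and 0.06 in C57) or with the offset of 32 (adjusted p = 0.23 and 0.27). With other samples in the fit both MRL calls were lost (adjusted p = 0.075 on 1417312_at and 0.099 on 1448669_at). They were also lost in MRL without infarct replicate 2 or 4 or noninfarct replicate 1, 2 or 3 (adjusted p = 0.059 to 0.12), and in C57 without infarct replicate 3 or 4 or noninfarct replicate 1, 3 or 4 (adjusted p = 0.082 to 0.11). The C57 difference on 1448669_at passed without noninfarct replicate 2 (adjusted p = 0.02), with quantile normalization (adjusted p = 0.033), with centring (adjusted p = 0.042) and with the 2 libraries that stood apart left out (adjusted p = 0.042). Those 2 are day 5 libraries, so leaving them out changed only the shared spread and the adjustment.

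The atrium marker list moved between the regions in the same samples. Its 4 genes with a probe set summed to 86.2 to 251 intensity units in MRL infarct tissue at day 1, against 371 to 1691 in noninfarct tissue, and to 85.3 to 153 in C57 infarct tissue, against 409 to 1088 in noninfarct tissue. Of these, 3 of 4 genes were called lower in infarct tissue in MRL and 2 of 4 in C57, and Myl7 lay below the array median on every infarct array of day 0 and day 1. Its part in the regional difference of Dkk3 was not tested. Before infarction, at day 0, the Dkk3 difference on 1417312_at was -0.87 ± 0.29 in MRL and -1.18 ± 0.34 in C57 (adjusted p = 1 in both), with no overlap. At that day no member was called, 3 in MRL and 2 in C57 had an unadjusted limma p under 0.05, and the share of all probe sets called was 0.0304% in MRL and 0% in C57.

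**Figure D4:**
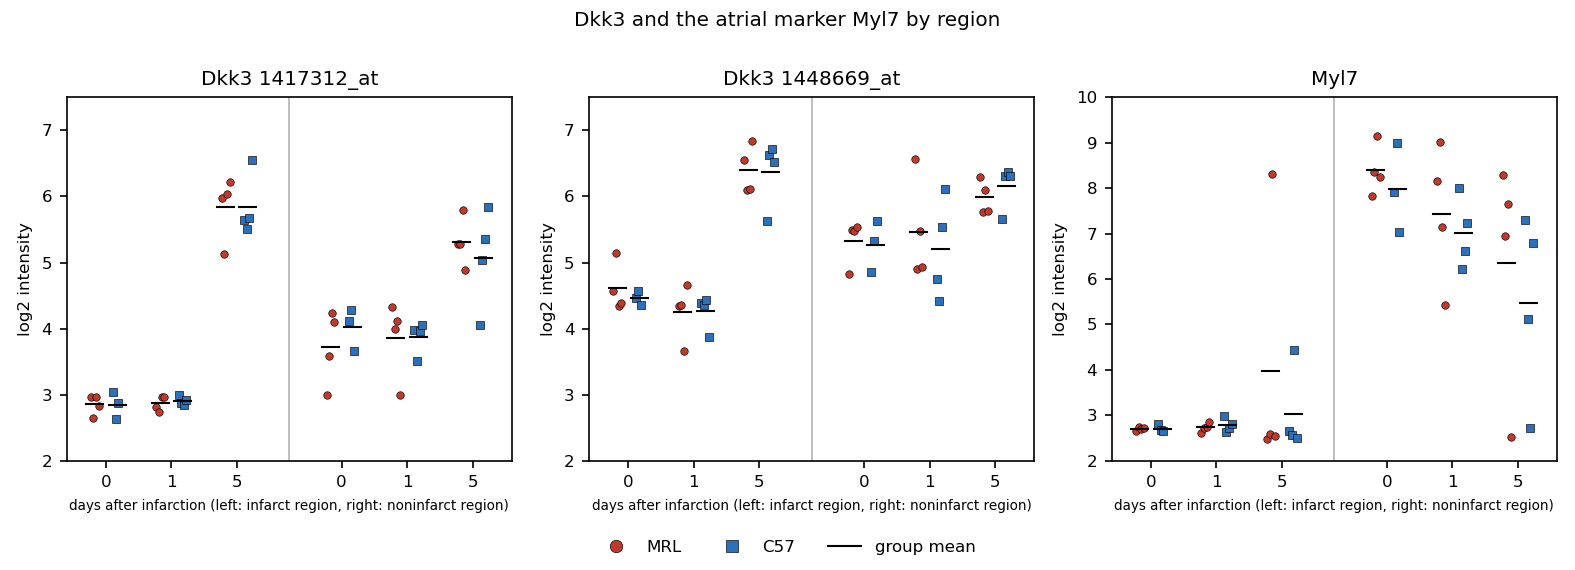
Log2 intensity of both Dkk3 probe sets and of the atrial marker Myl7 on every array by day, with infarct tissue left of noninfarct tissue in each panel, MRL left of C57 and bars at group means. On 1417312_at the infarct samples of day 0 and day 1 lie between 2.63 and 3.03, most noninfarct samples of those days lie above 3.4, and the infarct samples of day 5 lie between 5.13 and 6.55.

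At day 5 none of the 5 tested members, which leave out Sfrp2, was called between regions in either strain, where 14% of all probe sets in MRL and 8.53% in C57 were called, and 3 probe sets in each strain had an unadjusted limma p under 0.05. Calls appeared without the libraries that stood apart. Those libraries were set apart by expression values of these same arrays, each towards the other region. Leaving them out thus favoured a wider gap between regions and a smaller spread, so the calls without them are no independent test. Without both of them Sfrp1 1448395_at was higher in infarct than in noninfarct tissue by 1.75 in MRL (adjusted p = 0.00069) and by 2.05 in C57 (adjusted p = 2e-04), against 0.99 and 1.28 with all arrays (adjusted p = 0.24 and 0.13). Sfrp1 1416594_at then differed by 1.71 in MRL and 1.56 in C57 (adjusted p = 0.00053 and 0.0018), against 1.16 and 0.87 with all arrays (adjusted p = 0.11 and 0.24). Frzb 1416658_at was then higher in C57 infarct tissue by 1.22 (adjusted p = 0.0039), against 0.84 with all arrays (adjusted p = 0.14). Sfrp1 1460187_at then differed by 1.08 in MRL (adjusted p = 0.018), against 0.78 with all arrays (adjusted p = 0.13), and Dkk3 1417312_at by 0.87 in C57 (adjusted p = 0.034), against 0.77 with all arrays (adjusted p = 0.081). In C57, Sfrp1 1448395_at also passed without infarct replicate 1 alone (1.65, adjusted p = 0.039).

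Whether the regions changed unequally was tested as region by infarction, and none of 42 values was called while 7 had an unadjusted limma p under 0.05. The closest was Dkk3 1417312_at at day 5, with a change from day 0 larger in infarct than in noninfarct tissue by 1.41 ± 0.42 in MRL (adjusted p = 0.2) and by 1.95 ± 0.45 in C57 (adjusted p = 0.064). Its day 0 means lay below every array median, at 2.85 in infarct tissue of each strain and 3.73 in MRL and 4.02 in C57 noninfarct tissue. These sizes thus depend on the scale at the dim end. The 2 libraries that stood apart were set apart by their expression, so calls without them are no independent test here either. Without the 2 libraries the Dkk3 differences were 1.34 in MRL and 2.04 in C57, with adjusted p-values of 0.026 and 0.0078. Sfrp1 1416594_at was then called too, at 2.13 in MRL (adjusted p = 0.0032) and 1.89 in C57 (adjusted p = 0.027), against 1.58 and 1.20 with all arrays (adjusted p = 0.28 and 0.53). Likewise Sfrp1 1448395_at was called at 1.53 in MRL (adjusted p = 0.043) and 1.98 in C57 (adjusted p = 0.027), against 0.77 and 1.21 with all arrays (adjusted p = 0.7 and 0.58), and Frzb 1416658_at at 1.90 in C57 (adjusted p = 0.013), against 1.52 (adjusted p = 0.42). Without the 3 libraries that went against their region, the MRL values of Dkk3 1417312_at and Sfrp1 1448395_at were not called (adjusted p = 0.064 and 0.058). In C57 the Dkk3 difference also passed without day 5 infarct replicate 1 (2.02, adjusted p = 0.019) and without day 5 noninfarct replicate 4 (2.21, adjusted p = 0.011). The share of all probe sets called was 0.0761% at day 1 and 0.0228% at day 5 in MRL, and 0.175% at day 1 and 0.137% at day 5 in C57.

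Wif1, whose protein binds Wnt ligands, had its lowest group means at day 5. In MRL noninfarct tissue it had 4.17, 3.41, 3.78 and 3.66 at day 5, against 4.74, 5.40, 3.86 and 4.22 at day 0. These groups overlapped, and the mean difference was -0.80 on the log2 scale. Since all 5 noninfarct arrays that carried Wif1 past the filter were of day 0 or day 1, the filter favoured a lower level at day 5, and in the fit without a filter the difference missed the threshold (adjusted p = 0.062). In C57 noninfarct tissue the difference was -0.31. In infarct tissue Wif1 lay above the array median on 1 of 23 arrays and was not tested, with 3.38 to 3.97 in MRL and 3.54 to 3.78 in C57 at day 5. Its 4 day 5 groups had the lowest means of the 12, and no gap between neighbours exceeded the SD.

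**Figure D5:**
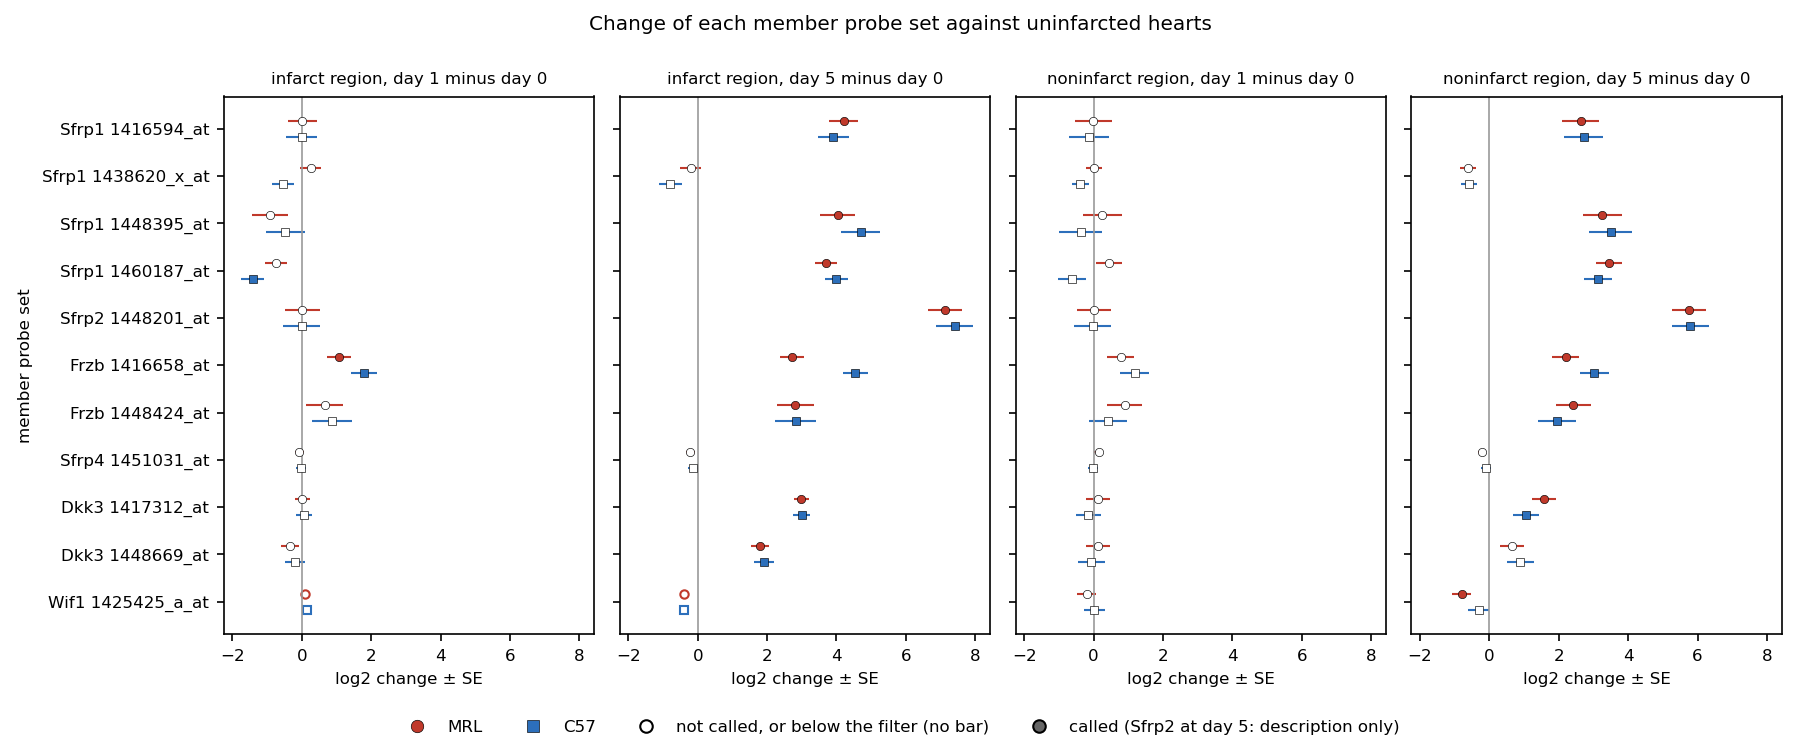
Log2 change from day 0 with its SE for each probe set at day 1 and day 5, by strain and region, filled where called and open where not, and without a bar where the probe set was below the filter. At day 5 the probe sets of Sfrp2, Frzb and Dkk3 and 3 of the 4 of Sfrp1 lie above 0 in both regions, where the values of Sfrp2, and in infarct tissue of Frzb 1448424_at and Dkk3 1417312_at, are a description only, as are those of Wif1 in noninfarct tissue.

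Of the 7 probe sets tested in infarct tissue that did not owe their selection to the day 5 arrays, 5 rose at day 5 in each strain, 3 of Sfrp1 and 1 each of Frzb and Dkk3. Of all probe sets, 46.9% in MRL and 42.7% in C57 were called there, with 23.6% and 23.4% called higher. Counted by gene through its brightest probe set, 2 of 4 tested genes rose, Frzb and Dkk3. In noninfarct tissue 6 of 10 probe sets rose in each strain, where 24.2% of all probe sets in MRL and 21.1% in C57 were called. Higher calls made up 16% of all probe sets in MRL and 11.6% in C57. At day 1 in infarct tissue 1 of 10 probe sets rose in MRL, and in C57 1 rose and 1 fell, where 21.5% and 15.5% of all probe sets were called. Higher calls made up 10.4% in MRL and 9.39% in C57, and lower calls 6.16% in C57. In noninfarct tissue at day 1 no probe set was called by limma, 0 in MRL and 1 in C57 had an unadjusted p under 0.05, and 0.98% and 3.99% of all probe sets were called. Frzb 1416658_at differed there by 0.78 ± 0.39 in MRL (adjusted p = 0.42) and 1.19 ± 0.42 in C57 (adjusted p = 0.12, and 0.047 with the libraries that stood apart left out). Those are day 5 libraries, so only the shared spread and the adjustment changed.

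Fibroblast markers moved with the day 5 levels. The 14 listed fibroblast genes summed to 51667 to 107934 intensity units in MRL infarct tissue at day 5, against 17394 to 18648 at day 0, and to 83828 to 106330 in C57 infarct tissue at day 5, against 14054 to 14855 at day 0. Of these genes 12 rose and 1 fell in MRL and 13 rose and 1 fell in C57. In noninfarct tissue the sums at day 5 were 65624 to 72278 in MRL, against 18174 to 22056 at day 0, and 35587 to 101555 in C57, against 17235 to 19192 at day 0. Macrophage markers rose too, 14 of 15 in infarct tissue of each strain, and cardiomyocyte markers fell, 11 of 13 in MRL and 10 of 13 in C57. In infarct tissue at day 5, 23.6% of all probe sets in MRL and 23.4% in C57 were called higher. Those called lower made up 23.4% in MRL and 19.3% in C57. The part of these cell types in the rise of Sfrp1, Frzb and Dkk3 was not tested.

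Among other genes of the pathway, the Wnt target list had 7 of 13 tested genes called higher in infarct tissue at day 5 in each strain, with a median change of 1.50 in MRL and 0.72 in C57, against medians over all probe sets tested of -0.05 and 0.00. The matricellular gene Ccn4 rose by 3.72 in MRL and 5.09 in C57, its relative Ccn5 by 4.76 and 4.23, and the adhesion receptor Cd44 by 4.77 and 5.12. At day 1, 4 of 13 target genes rose in MRL and 3 in C57, among them the transcription factor genes Myc and Fosl1 with 4.44 and 3.25 in MRL and 3.97 and 3.71 in C57. Of all probe sets in infarct tissue, 10.4% in MRL and 9.39% in C57 were called higher at day 1, and 23.6% and 23.4% at day 5. Of 11 tested receptor genes, the frizzled receptor Fzd2 rose in both strains at day 5, by 0.96 ± 0.22 in MRL and 1.76 ± 0.24 in C57 (adjusted p = 0.0017 and 1.8e-05), while Kremen1 and Lgr6 fell in C57 by 1.10 and 0.66. At day 0 Fzd2 had 3.99 in MRL and 3.97 in C57, Ccn5 2.41 and 2.51, and Cd44 3.08 and 3.39. These means and those of Myc and Fosl1 lay below every array median. The filter may thus have favoured their rise, and the sizes depend on the scale at the dim end. Kremen1 lay below every array median in C57 infarct tissue at day 5, with 3.22, so the filter may have favoured its fall.

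Of 5 tested genes of the ligand list, 1 rose and 1 fell in MRL and 1 rose in C57 at day 5. Wls, which carries Wnt proteins to the cell surface, rose by 1.29 in MRL and 1.44 in C57, and Wnt5a fell by 1.08 in MRL. Only 2 of 11 genes listed as other Wnt antagonists passed the filter in infarct tissue, and of these Tpbg encodes a membrane protein. Igfbp4, a binding protein for insulin-like growth factors that also binds Lrp6 and frizzled, rose by 2.37 ± 0.41 in MRL and 1.71 ± 0.44 in C57 (adjusted p = 0.00014 and 0.0043), and Tpbg rose by 1.34 in MRL. In MRL infarct tissue Tpbg lay below every array median at day 0 with 3.62, and Wnt5a at day 5 with 3.49. The filter may have favoured both differences. Of 16 tested intracellular genes, 2 rose and 1 fell in MRL and 1 rose in C57, with Pygo2, a nuclear cofactor of beta-catenin, higher by 0.90 and 0.87. Over all probe sets 46.9% in MRL and 42.7% in C57 were called there, a larger share than among these intracellular genes. None of the 3 listed R-spondin and norrin type genes passed the filter.

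Likeness to other genes was measured as Pearson's r of log2 levels over the 46 arrays, which share the structure of days and regions, and is given as a description. The genes most like Sfrp2 were Tmem119 with r = 0.99, Ms4a7 with 0.984 and Ptn with 0.982. Those most like Sfrp1 on 1448395_at were Gpx7 with 0.968, Serpinf1 with 0.967 and Pld3 with 0.966, and on 1438620_x_at they were Grhl2 with 0.785, Psg23 with 0.757 and Pla2r1 with 0.755. Frzb on 1416658_at was most like Ext1 with 0.888, Bicc1 with 0.884 and Csrp2 with 0.88, and Dkk3 on 1448669_at was most like Ccdc80 with 0.844, Gpx3 with 0.84 and Fbln5 with 0.835. Nearest to Sfrp4 were Npvf with 0.765 and Ager and Tsnaxip1 with 0.759 each, and nearest to Wif1 were Gsta3 with 0.734, Surf2 with 0.708 and Zfp51 with 0.686. Among the members, Sfrp2 correlated with the 3 rising Sfrp1 probe sets at r = 0.948 to 0.962, with those of Frzb at 0.81 to 0.811 and of Dkk3 at 0.767 to 0.884, and with Sfrp4 and Wif1 at -0.485 and -0.609.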

How the data were processed

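RNA from infarct and noninfarct left ventricle was hybridized to Affymetrix MOE430A arrays. The authors deposited 1 linear intensity for each probe set and array. GCRMA is the tool that the submitters' processing notes name, without its version. The design foresaw linear values, so log2 was taken with no offset, the smallest intensity being 1.03. GCRMA lowers dim probe sets towards a floor, so differences from a dim group depend on the scale. The genome build of the annotation is not given in the sources used here.

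Each group's mean was estimated by limma (version 3.58.1, run under R 4.3.3, moderated by eBayes), on 23 arrays for each region and on 46 for comparisons between regions. After a filter on probe sets above the array median on 3 or more arrays, 12834, 12344 and 13138 probe sets were tested in the infarct, noninfarct and combined fits, with Benjamini-Hochberg adjustment. Of 22690 probe sets, 20380 carried 1 gene symbol, 691 several and 1555 none, and 64 were controls. A gene was represented by its brightest probe set, and all 11 probe sets of the 6 genes are reported. Named genes outside them are, per member, the 3 with the highest correlation to its representing probe set (for Sfrp1 also to 1448395_at, added after its values were seen), and from each pathway list at most 4 called genes with the largest change per comparison. The members and lists were chosen with earlier results of these data known. All 6 genes matched RefSeq by Entrez ID.

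No 2 arrays were identical, and the number of arrays limits the precision. Samples were grouped by their labels. Same-numbered infarct and noninfarct arrays deviated together in every pair only in C57 day 0 (r from 0.227 to 0.435) and MRL day 1 (0.337 to 0.557), and in other groups the lowest r ran from -0.462 to 0.0708, so the numbers were not taken to pair samples in the main fits. Tested on simulated data for the C57 infarct comparison of day 1 with day 0, with 12834 probe sets, 44 of 100 changes of log2 size 1 and 83 of 100 of size 2 were recovered, with 4 false calls among 12634.

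Alternatives were no filter, quantile normalization, centring on array medians, an offset of 32, other samples in the fit, the most variable probe set, replicate number as a block, and leaving out single arrays or the 2 libraries that stood apart. Leaving out the 3 libraries that went against their region by Myl7 was chosen after seeing the data. The 2 libraries that stood apart were also set apart by expression values of these data.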

Additional observations from a re-analysis of the deposited data

Results flagged for a closer look

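Of 110 groups of 4 arrays by probe set, 10 held a highest or lowest array whose gap to the others took up more of the group's range than Dixon's critical value, and chance gives about 1 in 20 such groups. For Sfrp1 these were the infarct array of MRL day 0 replicate 2, with 8.22 on 1438620_x_at, and of C57 day 5 replicate 1, with 8.83 on 1448395_at. For Frzb 1416658_at they were C57 day 1 infarct replicate 2 with 6.21 and MRL day 0 noninfarct replicate 1 with 6.01.

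For Dkk3 the arrays were C57 day 5 infarct replicate 4 with 6.55 on 1417312_at and, on 1448669_at, C57 day 1 infarct replicate 4 with 3.87, C57 day 5 noninfarct replicate 1 with 5.65 and MRL day 0 noninfarct replicate 1 with 4.83. For Wif1 they were C57 day 1 noninfarct replicate 4 with 4.60 and MRL day 1 infarct replicate 1 with 3.69. None of these is a library that went against its region label by Myl7.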

How the results depend on the processing

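Counts are of members, by gene, summed over the comparisons of a kind. The 2 strain calls, both Frzb at day 0, became 1 without a filter, 0 with the offset of 32, 4 without the 2 libraries that stood apart and 4 without the 3 libraries that went against their region, and ranged from 1 to 2 on leaving out single arrays. The 2 infarct calls at day 1 became 1 without a filter and ranged from 1 to 2. The 0 noninfarct calls at day 1 became 1 without the 2 libraries, although both are of day 5. The 4 infarct calls at day 5 ranged from 4 to 5. The 3 noninfarct calls became 7 with the most variable probe set and ranged from 2 to 5. Of these 3, the Wif1 call came from the filtered fit that favoured it and was lost without a filter (adjusted p = 0.062). The 1 call between regions became 0 with other samples in the fit, 2 with centring, quantile normalization or the most variable probe set, and 3 with the replicate block, without the 2 libraries or without the 3, and ranged from 0 to 2. The 0 calls of region by infarction became 1 without the 2 libraries or the 3, and the 0 of strain by infarction held under all settings run. Sfrp1 turned from lower to higher at day 5 when its most variable probe set stood for it, with 4.03 in MRL and 4.70 in C57 infarct tissue and 3.26 and 3.49 in noninfarct tissue. The cause was not tested, except that the last alternative reads another probe set.

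Of 291 single values, those that lost a call numbered 6 without a filter, 6 with the offset, 3 without the 3 libraries, 2 with other samples in the fit, and 1 each with quantile normalization, centring, the replicate block and without the 2 libraries. Those that gained one numbered 23 without the 2 libraries, 20 without the 3 and 9 with the replicate block. With the replicate block, calls at day 5 between regions were gained by Sfrp1 1416594_at and 1438620_x_at in MRL (adjusted p = 0.042 and 0.033) and by Sfrp1 1448395_at and Dkk3 1417312_at in C57 (0.041 each), at day 1 by Dkk3 1448669_at and Sfrp1 1460187_at in C57 (0.048 and 0.029), for region by infarction by Dkk3 1417312_at in C57 (0.025), and for day 5 against day 0 by Sfrp1 1438620_x_at in C57 infarct and MRL noninfarct tissue (0.043 each). The labels do not say that same-numbered arrays share a heart, so the block may join arrays of different hearts. In C57 day 1 the same-numbered arrays of the regions had r from -0.462 to 0.154. Dim probe sets, among them Sfrp4, Wif1 and Sfrp2 before day 5, limit what can be said, since no detection calls were used.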
